A study of Mus musculus with 36 samples.

Results

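The genes that copy DNA in S phase were followed in mouse macrophages and brain tumour cells exposed to myelin debris, as 39 named genes of the 29883 in the deposited gene count table. The list was chosen by gene symbol, with earlier results of these data known. All 39 genes were present and passed the filter on low counts in both cell types. The 36 bulk RNA sequencing libraries came from bone-marrow derived macrophages and from tumour cells of the line PDG-Ink4a Recurrent. Each cell type was grown alone (mono-culture) or with the other (co-culture). Cells were taken at 0 h (labelled Control), 6 h or 24 h after myelin debris was added. Each of the 12 groups had 3 libraries, numbered 001 to 003. No group was kept for 6 h or 24 h without myelin. In changes from 0 h, myelin and time in culture therefore cannot be told apart. In the PDG-Ink4a model, Nestin-positive progenitors that lack Ink4a/Arf, a locus encoding inhibitors of entry into S phase, are made to express platelet-derived growth factor b; tumour cells of all groups carry both changes and come from a single line. Whether the numbered libraries came from separate animals or cultures is not stated, so the p-values measure the spread between these libraries, which may be technical.

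DNA replication is prepared in G1, when the origin recognition complex, Cdc6 and Cdt1 load the ring of Mcm2 to Mcm7 onto DNA. In S phase Cdc45 and the GINS complex turn that ring into an active helicase, primase and DNA polymerases copy both strands, and the clamp Pcna, loaded by the Rfc complex, holds the polymerases on DNA. Many of these genes are transcribed by E2F factors in late G1, and cyclin E with its kinase drives entry into S phase. Bone-marrow derived macrophages divide in culture as long as their growth factor is present.

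Libraries held 7911378 to 15319104 counts (median 12262573). Expression is given as CPM, the counts scaled to the library's total and to edgeR's TMM factors within a cell type, and a gene is called when edgeR's quasi-likelihood test over all genes of that cell type gave a Benjamini-Hochberg adjusted p under 0.05. The summed level of 15 macrophage markers was 21250 to 27340 CPM in macrophage libraries and 15.7 to 2147 CPM in tumour libraries. The 14 glioma and mesenchymal tumour markers summed to 10820 to 15500 CPM in tumour libraries and 42.7 to 648 CPM in macrophage libraries, and 6 lymphocyte markers to at most 0.31 CPM in any library. Libraries numbered 001 stood apart: a single gene, CT010467.1 in the count table, took up to 17.4% of their counts, and macrophage RNA made up at most 0.0518% of their tumour libraries. In bulk RNA, fewer cells in S phase and less of these RNAs per cell cannot be told apart.

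Of the 39 genes, 32 could be matched to a promoter in the RefSeq table (build GRCm38.p6, the build also named mm10). The letters TTTCCCGC, TTTGGCGC, TTTCGCGC or TTTGCCGC, forms of the E2F site, stood on either strand in the 250 bases before a RefSeq transcript start of 9 of these 32 genes, or 28.1%, against 2.16% of 27025 genes. The 32 genes had 37 such starts, and the stretches shown for Cdc6 and Uhrf1 lie before a start inside the gene's span in the count table. Those 9 were Cdc6, Gins3, Mcm5, Mcm6, Mcm7, Orc1, Pola1, Rfc3 and Uhrf1. The stretches that hold the letters are shown for the 5 of the 9 whose stretch overlaps no annotated exon of any gene. Capitals mark the match, and in Mcm5 and Mcm6 a match on each strand overlaps.
Mcm5, chr8:75109330-75109393, plus strand: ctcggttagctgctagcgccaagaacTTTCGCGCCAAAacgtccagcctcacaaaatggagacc
Mcm6, chr1:128359719-128359841, minus strand: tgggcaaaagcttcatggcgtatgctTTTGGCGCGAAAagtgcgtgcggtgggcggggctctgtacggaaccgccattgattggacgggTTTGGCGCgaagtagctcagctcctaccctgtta
Cdc6, chr11:98907987-98908046, plus strand: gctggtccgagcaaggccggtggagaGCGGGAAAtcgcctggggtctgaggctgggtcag
Pola1, chrX:93632260-93632319, minus strand: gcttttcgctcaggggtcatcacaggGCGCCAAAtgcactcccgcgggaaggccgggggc
Uhrf1, chr17:56304102-56304161, plus strand: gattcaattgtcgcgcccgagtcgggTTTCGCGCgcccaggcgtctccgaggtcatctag
The CCAAT box, searched as CCAAT on both strands, stood in 20 of the 32 promoters, or 62.5%, against 37.5% of all genes. TTTGAA, a form of the element that marks genes of G2 and mitosis, stood in 4 of 32, or 12.5%, against 18.3%. Mcm2, Pcna, Rrm2, E2f1 and Ccne1 held none of the E2F letters in this window.

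In tumour cells grown alone, the DNA replication genes fell together in the day after myelin. At 24 h 35 of 39 were lower than at 0 h and none was higher, where 6.81% of all genes tested were called lower, 3.66% higher and 10.5% in either direction. The median change of the 39 was -1.04 on the log2 scale, against 0.01 for all genes tested. All 39 were lower in each of the 3 numbered sets of libraries. The groups of all 35 called genes and of 3 of the other 4 did not overlap, as for 34.1% of all genes. The called genes had adjusted p between 0.00206 and 0.0477 in edgeR's quasi-likelihood test. With the library number as a block 37 were lower, where 27.9% of all genes were called in either direction. Leaving out 1 library brought the count to between 20 and 32: it was 20 without mono-culture 24 h library 003 and 22 without mono-culture 0 h library 001.

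All 6 subunits of the Mcm2 to Mcm7 helicase fell, by a median of -1.20 (log2). Mcm2 stood at 109, 94.4 and 90.6 CPM at 0 h and at 43.8, 44.5 and 43.5 CPM at 24 h. All 3 later libraries lay within about a CPM of each other and under the lowest of the earlier ones, a change of -1.16 ± 0.19 (log2 ± SE, n = 3 against 3). Mcm3 went from 100, 82.3 and 83.3 CPM to 30.5, 36.7 and 32.4 CPM, a change of -1.42 ± 0.25. Mcm5 went from 114, 69.6 and 78.7 CPM to 36.5, 33.5 and 29.2 CPM, a change of -1.40 ± 0.22. In Mcm5 library 001 was the highest at 0 h, and the groups still did not overlap.

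The loaders and activators of the helicase followed it. Orc1, the large subunit of the origin recognition complex, went from 7.59, 4.71 and 6.81 CPM to 2.44, 2.86 and 1.96 CPM, a change of -1.39 ± 0.33. The loading factors Cdc6 (-1.28 ± 0.26) and Cdt1 (-1.29 ± 0.26) fell by a like amount, while Orc6, another subunit of the origin complex, fell less (-0.59 ± 0.15). Orc6 lies over Vps35, a gene with 1040% of its counts. Of the factors that activate the ring, Mcm10 (-1.24 ± 0.28), Cdc45 (-1.27 ± 0.23), Gins1 (-1.21 ± 0.31) and Gins3 (-0.55 ± 0.15) fell, and Gins2 passed with the block and not without it (-0.67 ± 0.21, adjusted p = 0.0551 by edgeR; with the block -0.68 ± 0.20, adjusted p = 0.0212).

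At the fork, all 6 genes of polymerases and primase fell, by -0.86 to -1.36. Pole, the catalytic subunit of the leading strand polymerase, went from 58.5, 41.3 and 43 CPM to 16.9, 21.2 and 17.4 CPM, a change of -1.36 ± 0.24. Pcna went from 128, 92.4 and 98.8 CPM to 52.6, 60.2 and 56.2 CPM, a change of -0.92 ± 0.23. The groups of both genes were apart. The clamp loader subunits Rfc2 (-0.44 ± 0.13), Rfc3 (-0.74 ± 0.20) and Rfc5 (-0.91 ± 0.18) also fell. Rfc4 was -0.43 ± 0.20 and was not called; it overlaps Eif4a2, which had 1350% of its counts. Fen1, which trims Okazaki fragments (-1.11 ± 0.24), the ligase Lig1 (-1.04 ± 0.25) and the single-strand binding subunit Rpa2 (-0.87 ± 0.21) fell as well.

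Rrm2, the small subunit of ribonucleotide reductase, which makes deoxyribonucleotides, went from 104, 75.5 and 86.6 CPM to 32.2, 41.1 and 34.8 CPM. That change of -1.30 ± 0.26 was larger in size than that of the large subunit Rrm1 (-0.82 ± 0.19); the difference between the genes was not tested. Tyms, which makes thymidylate, was -0.50 ± 0.17 and missed the threshold (adjusted p = 0.0673, edgeR), which it passed with the block (-0.49 ± 0.14, adjusted p = 0.0174). Chaf1b, a subunit of the complex that places histones on new DNA, had the largest change of the 39: it went from 25.2, 17.3 and 19.5 CPM to 6.09, 8.43 and 7.46 CPM (-1.49 ± 0.32). Its partner Chaf1a (-1.18 ± 0.20), the maintenance methylation factor Uhrf1 (-1.28 ± 0.22) and the histone mRNA binding protein Slbp (-0.78 ± 0.17) fell too.

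The drivers of S phase entry did not move as one. Ccne2, one of the E cyclins, went from 33.8, 21.8 and 27 CPM to 8.05, 13.2 and 9.12 CPM, a change of -1.44 ± 0.31. Ccne1, the other E cyclin, went from 28.7, 31.5 and 31.1 CPM to 14.6, 19.2 and 15.6 CPM, a change of -0.88 ± 0.26. E2f1, an activating E2F factor, stood at 61.6, 50.8 and 51 CPM at 0 h and at 50.3, 50.5 and 47.8 CPM at 24 h. Its change of -0.14 ± 0.10 did not pass (adjusted p = 0.421, edgeR), and it was the smallest of the 39.

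**Figure D1:**
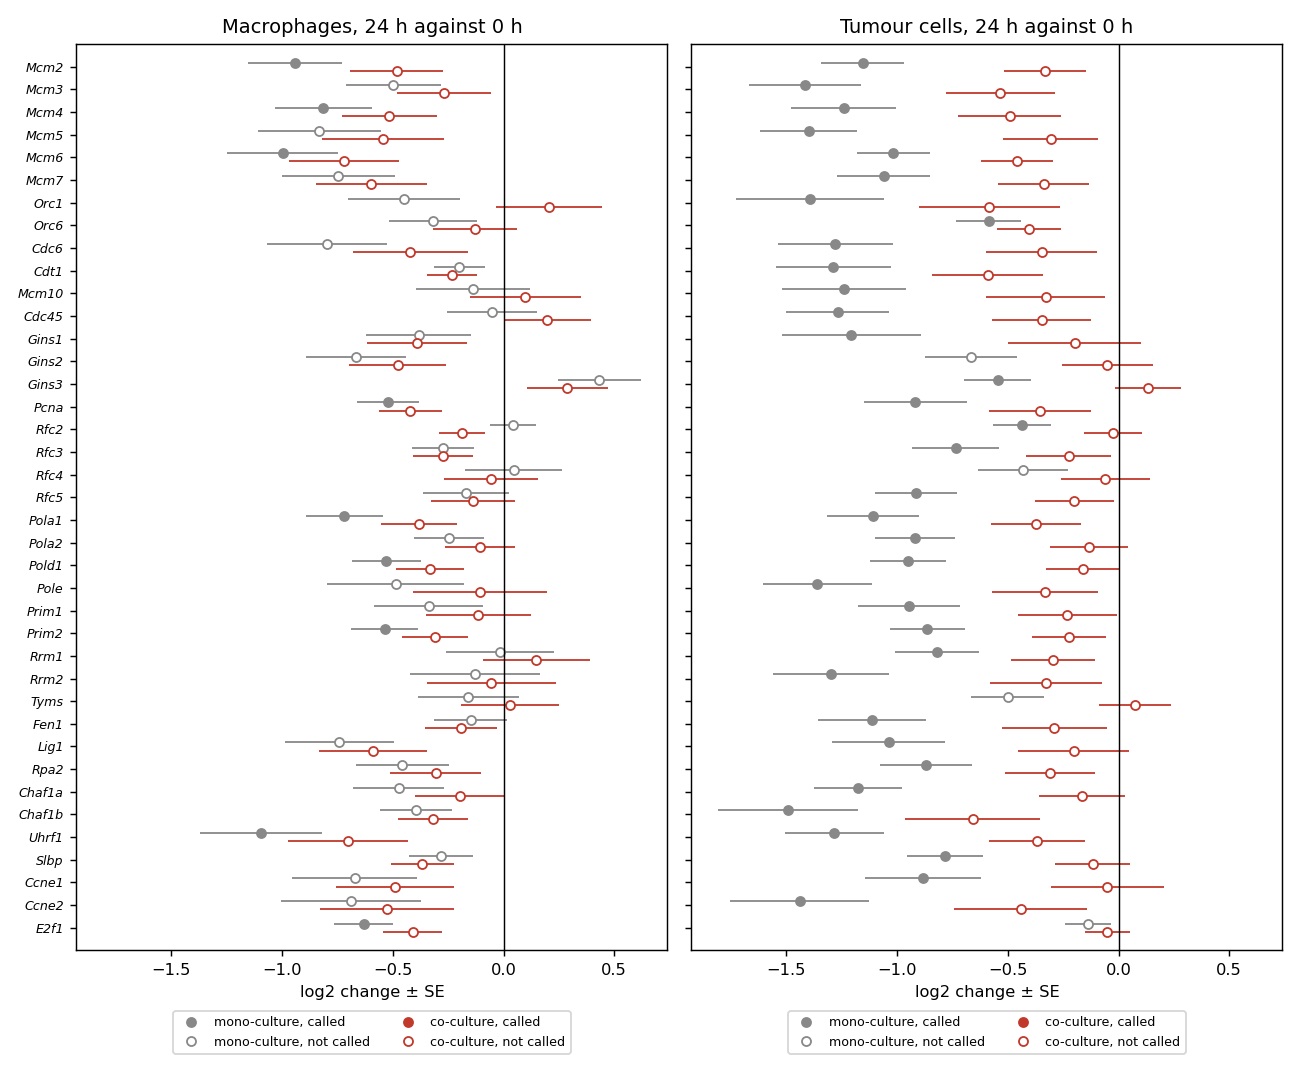
Change from 0 h to 24 h after myelin (log2, horizontal axis) of each of the 39 genes in macrophages (left) and tumour cells (right), in mono-culture (grey) and co-culture (red). Bars are 1 SE, filled points were called at an adjusted p under 0.05 (edgeR) and open points were not. In the tumour panel the grey points lie left of the red ones, and no red point is filled in either panel.

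The 9 genes with E2F letters in the window above all fell in these cells, with a median change of -1.11 (log2), and 20 of the other 23 matched genes fell, with a median of -0.95. The ranges of the 2 sets overlapped. A link between the letters and the change was not tested.

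The wider replication machinery and the regulators of S phase entry were lists that hold no member of the 39. They too were chosen with earlier results of these data known. Of 46 other replication genes, 31 were lower in mono-cultured tumour cells at 24 h (median -0.90), among them Exo1, a nuclease of DNA repair (-1.57 ± 0.27), and Clspn, a fork protection factor (-1.38 ± 0.26). Of 30 measured G1 to S regulators 13 were lower, led by the repressive E2F factors E2f8 (-1.59 ± 0.32) and E2f7 (-1.56 ± 0.30) and by Mybl2 (-1.40 ± 0.25). Of 22 G2 and mitosis genes 1 was lower, Aurkb, a mitotic kinase (-1.17 ± 0.35), although the median of the 22 was -0.97. With the replicate block 12 of the 22 were lower. Library 001 at 0 h held a mean of 6.26 log2(CPM + 1) over these 22 genes, and libraries 002 and 003 held 4.78 and 4.85.

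At 6 h in mono-culture 0 of 39 genes was called by edgeR, with 7 at an unadjusted p under 0.05 and 0 by DESeq2; 0.00735% of all genes were called. The median change was -0.31, and 38 of 39 changes were negative. In library 001 all 39 were lower than at 0 h (median -0.63), while the median was -0.19 in library 002 and -0.05 in library 003. Mcm2 stood at 67, 69.3 and 93 CPM, Pcna at 78.9, 92.1 and 104 CPM and Rrm2 at 62.5, 72.5 and 84.6 CPM. For all 3 genes these values overlapped those at 0 h. With libraries 002 and 003 alone, a setting chosen after the data were seen, 2 of 39 were lower. Here and throughout, counts at an unadjusted p under 0.05 are given without the share of all genes at that threshold. Counts from this setting, DESeq2, the compared groups alone, no low-count filter and 1 library left out also lack such a share. These counts are therefore not set against a background.

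In tumour cells that shared the culture with macrophages, 0 of 39 genes was called between 0 h and 24 h by edgeR, with 5 at an unadjusted p under 0.05 and 0 by DESeq2; 0.787% of all genes were called. The median change was -0.31, 37 of 39 changes were negative, and 28 of 39 genes were lower in each of the 3 numbered sets. With the replicate block 1 gene was called, Orc6 (-0.41 ± 0.12), where 9.28% of all genes were, and with libraries 002 and 003 alone 6 were lower. Mcm2 stood at 85.9, 111 and 112 CPM at 0 h and at 61.4, 94.2 and 88.9 CPM at 24 h, a change of -0.33 ± 0.18. Rrm2 stood at 82.8, 120 and 116 CPM and then at 46.5, 103 and 104 CPM, a change of -0.33 ± 0.25. In both genes library 001 was the lowest at both times, and the later libraries 002 and 003 lay above the earlier library 001.

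Pcna stood at 93.3, 134 and 129 CPM and then at 65, 113 and 100 CPM, a change of -0.36 ± 0.23. Ccne1 stood at 23.7, 39.8 and 36.8 CPM and then at 20.6, 40.1 and 36 CPM (-0.05 ± 0.26). Ccne2 stood at 25.5, 41.7 and 35.1 CPM and then at 13.7, 32.7 and 28.8 CPM (-0.44 ± 0.30). The groups overlapped for all of these. E2f1 was nearly level, at 53.4, 58.1 and 57.4 CPM and then at 50.4, 55.4 and 57.4 CPM (-0.05 ± 0.10). At 6 h in co-culture 0 of 39 was called, with 3 at an unadjusted p under 0.05 and 0 by DESeq2, where 0.0147% of all genes were; the median change was -0.20.

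**Figure D2:**
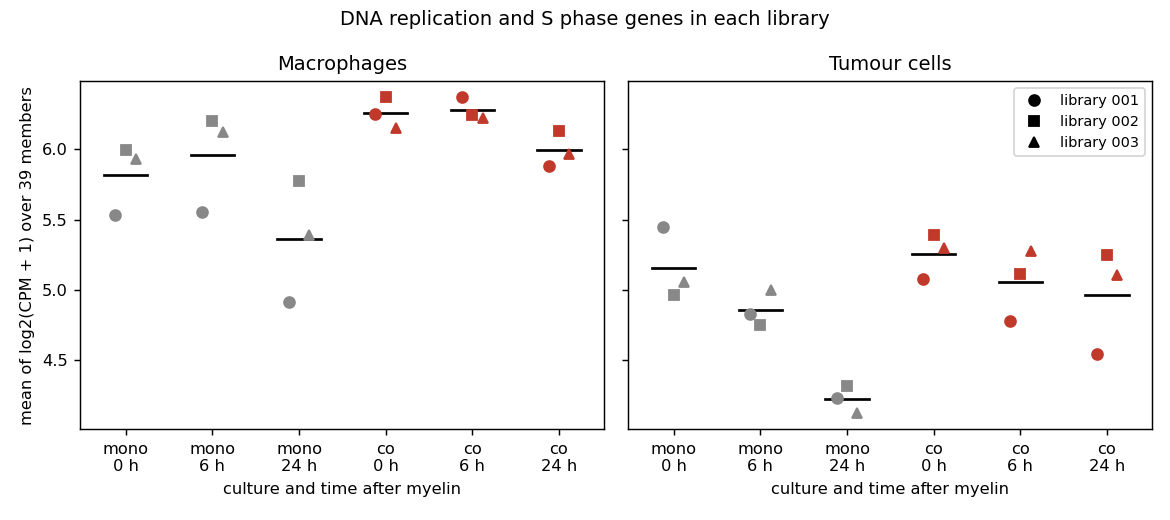
Mean of log2(CPM + 1) over the 39 genes in each library, by culture (mono, co) and hours after myelin, with lines at the mean of 3 libraries and symbols for the library number. The 2 cell types were scaled separately, so heights are compared within a panel only. The mono-cultured tumour libraries at 24 h lie at 4.12 to 4.31, under every other tumour library.

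Set side by side at 24 h, co-cultured tumour cells had higher levels than mono-cultured ones for all 39 genes, with a median difference of 0.80 (log2). In the fit without pairing none of the 39 was called by edgeR, where 0.0809% of all genes were called and 0.0735% were called higher. At an unadjusted p under 0.05 there were 38 of the 39, and DESeq2 called 27. Both counts lack a share of all genes beside them. Fitted with the library number as a block, 26 were higher, where 6.12% of all genes were called and 4.39% were called higher. The groups of 33 genes did not overlap, as for 19.3% of all genes, and 37 genes were higher in each of the 3 numbered sets. Library 001 differed less (median 0.31) than libraries 002 and 003 (0.95 each). Without co-culture library 001 at 24 h 30 genes were called. With libraries 002 and 003 alone, chosen after the data were seen, all 39 were called. Neither the 30 nor the 39 is set against a share of all genes.

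Among the 39 genes Ccne2 had the largest difference. It stood at 8.05, 13.2 and 9.12 CPM in mono-culture and, beside macrophages, at 13.7, 32.7 and 28.8 CPM, a difference of 1.31 ± 0.31 (adjusted p = 0.0920, edgeR) that was 1.28 ± 0.27 with the block (adjusted p = 0.0221, edgeR). Ccne1 stood at 14.6, 19.2 and 15.6 CPM and at 20.6, 40.1 and 36 CPM, a difference of 0.97 ± 0.26 that was 0.94 ± 0.15 with the block (adjusted p = 0.00960, edgeR). For both cyclins the lowest co-cultured library was 001, which still lay above every mono-cultured library.

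Rrm2 stood at 32.2, 41.1 and 34.8 CPM in mono-culture against 46.5, 103 and 104 CPM (1.23 ± 0.26; with the block 1.19 ± 0.22, adjusted p = 0.0165 by edgeR). Mcm2 differed by 0.89 ± 0.19 (with the block 0.88 ± 0.16, adjusted p = 0.0145 by edgeR). Pcna differed by 0.72 ± 0.23 and was called by neither fit. E2f1 differed least, at 50.3, 50.5 and 47.8 CPM against 50.4, 55.4 and 57.4 CPM (0.14 ± 0.10).

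Whether the 24 h change itself depended on the culture was tested by the interaction of culture and time. The co-culture change was the less negative one for all 39 genes, by a median of 0.75 (log2), but none was called: every adjusted p was 1.0 in edgeR's test, with 28 of 39 at an unadjusted p under 0.05, and DESeq2 and the block also called 0. With libraries 002 and 003 alone, chosen after the data were seen, 20 were called. That setting leaves out library 001, which at 0 h differed between the cultures in the opposite direction. Neither the 28 nor the 20 is set against a share of all genes. The interaction was 1.00 ± 0.43 for Ccne2, 0.97 ± 0.36 for Rrm2, 0.83 ± 0.37 for Ccne1, 0.82 ± 0.26 for Mcm2, 0.56 ± 0.33 for Pcna and 0.09 ± 0.15 for E2f1. Both changes are measured from their own 0 h libraries, and there the numbered sets went opposite ways.

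At 0 h 0 of 39 genes was called between the cultures of tumour cells by edgeR, with 0 at an unadjusted p under 0.05 and 0 by DESeq2; 0.0% of all genes were called. In library 001 all 39 were lower in co-culture (median -0.40), while in library 002 all 39 and in library 003 38 of 39 were higher (medians 0.42 and 0.25). From mono-culture to co-culture Mcm2 went from 109, 94.4 and 90.6 CPM to 85.9, 111 and 112 CPM. Pcna went from 128, 92.4 and 98.8 CPM to 93.3, 134 and 129 CPM. Both genes show the same crossing of library 001 with the others. Libraries 002 and 003 alone gave 15 genes higher in co-culture at 0 h and 12 at 6 h. At 6 h 0 was called with all libraries, with 1 at an unadjusted p under 0.05 and 0 by DESeq2, the median difference was 0.21 and 0.0% of all genes were called. The interaction at 6 h called 0 genes by edgeR and by DESeq2, with 0 at an unadjusted p under 0.05 and 0.0% of all genes.

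Macrophage RNA in the tumour libraries was measured from the 50 genes that most separate the cell types at 0 h. In mono-culture its share was 0.0167%, 0.485% and 0.693% at 0 h and 0.0149%, 2.13% and 2.69% at 24 h, so in libraries 002 and 003 it was higher at 24 h, when the 39 genes were lower. In co-culture it was 0.0302%, 2.88% and 2.12% at 0 h and 0.0518%, 2.05% and 2.16% at 24 h. The cultures were further apart in this share at 0 h than at 24 h. The mean share at 24 h was 1.61% in mono-culture and 1.42% in co-culture. At that mean, macrophage RNA would supply 1.33% to 13.2% of a gene's level in the mono-cultured group (median 3.76%), most for Pcna. In the co-cultured group it would supply 1.45% to 6.14% (median 2.81%). Libraries 002 and 003 lie above these means, so the part would be larger there. The levels of the 2 cell types were scaled separately, so these parts are approximate. In library 001, a single library in each group and so without a test, all 39 genes were lower at 24 h in mono-culture (median -1.29) and 37 of 39 were higher in co-culture than in mono-culture at 24 h. The part of macrophage RNA in these differences was not tested.

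**Figure D3:**
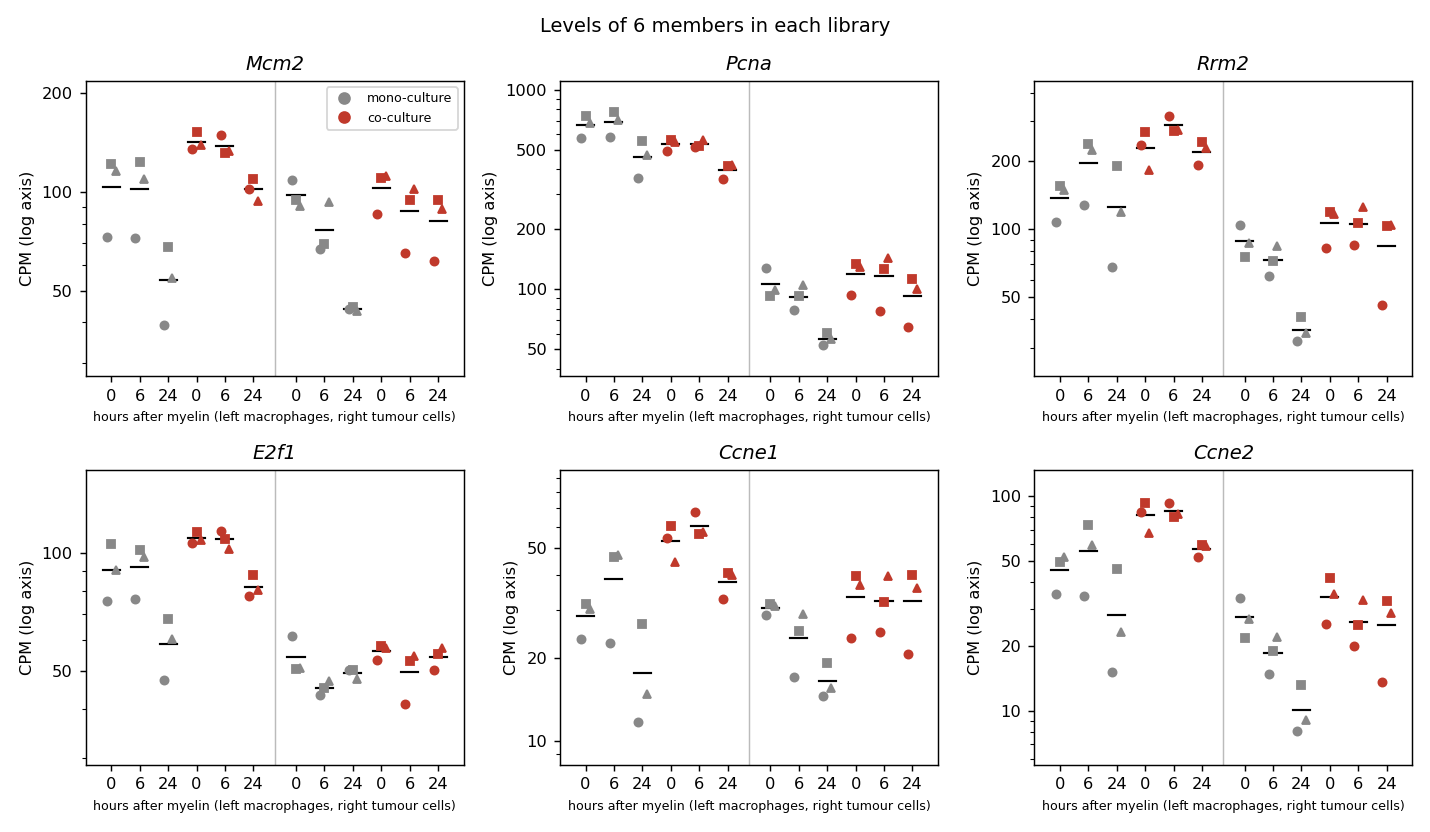
CPM (log axis) of 6 genes in each library at 0, 6 and 24 h after myelin, macrophages left and tumour cells right in each panel, scaled separately; grey is mono-culture, red is co-culture, circles, squares and triangles are libraries 001, 002 and 003, and lines are means. In mono-cultured tumour cells Mcm2 drops to 43.5 to 44.5 CPM at 24 h while E2f1 stays between 47.8 and 50.5 CPM.

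In macrophages grown alone, 9 of 39 genes fell by 24 h and none rose, where 7.61% of all genes were called lower and 15.2% in either direction. The median change was -0.46, against 0.00 for all genes tested, and 29 of 39 genes were lower in each numbered set. The replicate block called 16 lower, where 22.2% of all genes were called in either direction. DESeq2 called 14 and the fit of the compared groups alone called 0. The count rested on single libraries: it was 15 without library 001 at 0 h, 1 without 002 and 2 without 003 at 0 h, and 4, 24 and 3 without 001, 002 and 003 at 24 h.

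Of the 6 helicase subunits 3 fell. Mcm2 stood at 72.9, 121 and 116 CPM at 0 h and at 39.2, 67.8 and 54.5 CPM at 24 h, a change of -0.94 ± 0.21. Mcm6 stood at 214, 372 and 334 CPM and then at 105, 206 and 150 CPM (-0.998 ± 0.25). Every later library of both genes lay under every earlier one, and library 001 was the lowest at both times. Mcm4 (-0.81 ± 0.22) fell too, and with the block so did Mcm3, Mcm5 and Mcm7. The groups of 7 of the 9 called genes and of 2 of the other 30 did not overlap, as for 29.8% of all genes. Counted over called and uncalled members, the share was below that of all genes.

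Uhrf1 stood at 133, 212 and 199 CPM and then at 49.2, 119 and 85.5 CPM, a change of -1.09 ± 0.27. Prim2, a primase subunit, went from 30.4, 29.6 and 32.3 CPM to 16.4, 27 and 19.9 CPM (-0.54 ± 0.15), and Pold1, the catalytic subunit of a lagging strand polymerase, from 42.9, 56.2 and 57.7 CPM to 30.8, 40 and 38.1 CPM (-0.53 ± 0.15). None of these 3 genes had overlapping groups. Pola1, the catalytic subunit of the primase-bound polymerase, fell as well (-0.72 ± 0.18), with groups that overlapped.

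Pcna fell from 574, 738 and 680 CPM to 362, 554 and 471 CPM (-0.52 ± 0.14). E2f1 fell from 75.8, 106 and 90.8 CPM to 47.4, 68 and 60.3 CPM (-0.63 ± 0.13), whereas it did not pass in the tumour cells; that contrast between the cell types was not tested. Rrm2 (107, 155 and 150 CPM, then 68.5, 190 and 119 CPM) changed by -0.13 ± 0.29, with library 002 going up and the others down. Ccne1 (23.5, 31.4 and 30.1 CPM, then 11.7, 26.6 and 14.8 CPM) changed by -0.67 ± 0.28, and Ccne2 (35.1, 49.6 and 52 CPM, then 15.2, 45.9 and 23.3 CPM) by -0.69 ± 0.32. Neither cyclin was called, and in both the groups overlapped through library 002.

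Genes of G2 and mitosis moved the other way from the 9 replication genes called in mono-culture. Of 22 such genes 12 were higher at 24 h in mono-culture and 18 in co-culture, where 7.57% and 5.39% of all genes were called higher. Their median changes were 0.80 and 0.97. Ccnb2, a B cyclin, rose by 1.43 ± 0.28 and 1.72 ± 0.28, Cenpf, a kinetochore protein, by 1.18 ± 0.26 and 1.48 ± 0.25, and Ube2c, which acts in mitotic exit, by 1.17 ± 0.28 and 1.50 ± 0.27. In co-cultured macrophages at 24 h the mean over the 22 genes was 6.60 to 6.90 log2(CPM + 1), above 5.38 to 5.85 at 0 h.

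**Figure D4:**
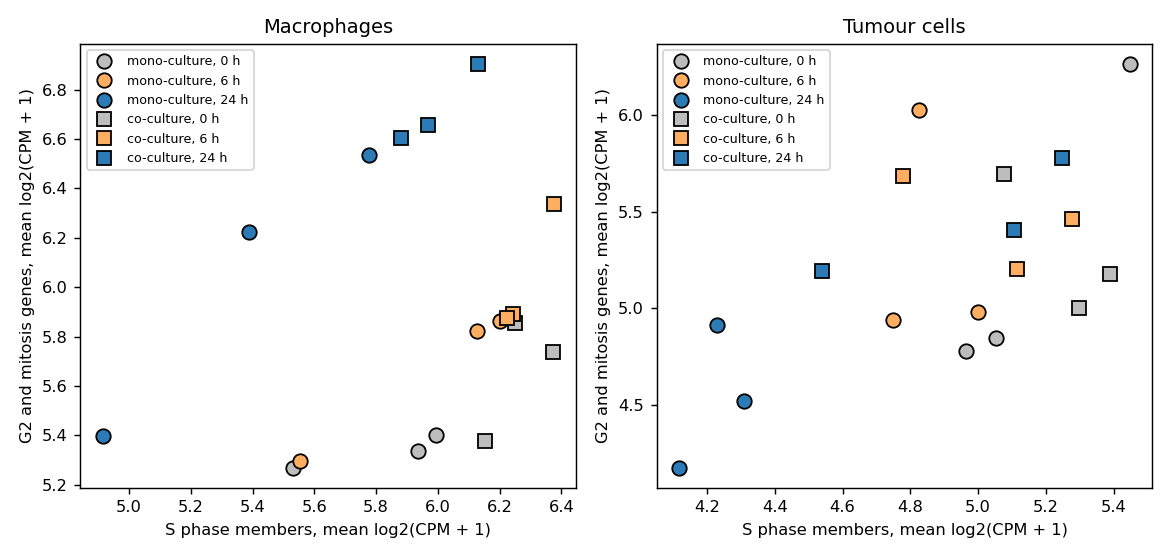
Mean log2(CPM + 1) of the 39 replication genes (horizontal) against 22 G2 and mitosis genes (vertical), 1 point per library, circles for mono-culture, squares for co-culture, and colours for hours after myelin. Each macrophage library at 24 h (blue) lies left of and above the 0 h library (grey) of the same culture and number. Mono-cultured tumour libraries at 24 h lie at the far left.

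Among the other lists in mono-cultured macrophages at 24 h, 7 of 46 other replication genes were lower and 1 was higher (median -0.24), led by Ung, which removes uracil from DNA (-1.69 ± 0.21). With the block 16 were lower and 1 higher. Of 31 G1 to S regulators 6 were lower and 3 higher, and the largest changes were in Ccnd1, a D cyclin (-1.67 ± 0.42), Myc (-1.47 ± 0.29) and Cdk6, a partner of D cyclins (-1.05 ± 0.14).

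In co-cultured macrophages 0 of 39 replication genes was called between 0 h and 24 h by edgeR. Of the 39, 12 had an unadjusted p under 0.05 in that test, and DESeq2 called 3. In edgeR's test 11.4% of all genes were called and 6.02% were called lower. The median change was -0.31, with 33 of 39 negative. The replicate block called 8 lower: Mcm4, Mcm6, Mcm7, Gins2, Pcna, Pola1, Uhrf1 and E2f1. With the block 19.7% of all genes were called in either direction, which is near the share of the 39, although all 8 were lower. The fit of these groups alone called 16, and libraries 002 and 003 alone called 9, both without a share of all genes beside them. Mcm2 stood at 135, 153 and 139 CPM and then at 102, 110 and 93.8 CPM, a change of -0.48 ± 0.21. Pcna stood at 491, 560 and 545 CPM and then at 356, 416 and 419 CPM (-0.42 ± 0.14; with the block -0.42 ± 0.09, adjusted p = 0.00319 by edgeR).

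E2f1 stood at 106, 113 and 108 CPM and then at 77.7, 88 and 80.4 CPM (-0.41 ± 0.13; with the block -0.41 ± 0.10, adjusted p = 0.00828 by edgeR). All 3 genes had non-overlapping groups, as had 22 of the 39 and 35.2% of all genes. Rrm2 changed by -0.06 ± 0.29, Ccne1 by -0.49 ± 0.27 and Ccne2 by -0.53 ± 0.30. The interaction of culture and 24 h change called 0 of 39 genes by edgeR, with 0 at an unadjusted p under 0.05 and 0 by DESeq2, where 0.0152% of all genes were called; the median was 0.19. At 6 h 0 of 39 was called in mono-culture (4 at an unadjusted p under 0.05; 2.15% of all genes), in co-culture (0; 0.213%, with 0.0912% lower) or in the interaction (0; 0.0%) by edgeR, and 0 by DESeq2 in each. The median changes at 6 h were 0.17 in mono-culture and 0.00 in co-culture.

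Macrophages that shared the culture with tumour cells had higher levels of replication genes. At 24 h 21 of 39 were higher than in mono-culture and none was lower, where 14.3% of all genes were called higher and 28.0% in either direction. The median difference was 0.66, against -0.03 for all genes, and 36 of 39 genes were higher in each numbered set. The groups of 27 genes did not overlap, as for 42.7% of all genes. DESeq2 called 32 and the fit of the 2 groups alone called 10. Without mono-culture library 001, 002 or 003 at 24 h the count was 5, 33 or 8, and without co-culture library 002 it was 4.

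From mono-culture to co-culture Ccne1 went from 11.7, 26.6 and 14.8 CPM to 32.7, 40.8 and 40.1 CPM, a difference of 1.08 ± 0.28. Ccne2 stood at 15.2, 45.9 and 23.3 CPM and at 52.2, 59.1 and 58.9 CPM (1.00 ± 0.31). In both E cyclins the 3 co-cultured libraries were close together and above all mono-cultured ones, of which library 002 was the highest. Orc1 stood at 3.71, 8.73 and 4.64 CPM and at 10.7, 15 and 9.72 CPM (1.03 ± 0.25). Cdc6 stood at 11.3, 27.2 and 17.4 CPM and at 33.1, 41.9 and 36.9 CPM (0.99 ± 0.27). These licensing factors did not overlap between the cultures either.

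Mcm2 stood at 39.2, 67.8 and 54.5 CPM and at 102, 110 and 93.8 CPM (0.91 ± 0.21). Uhrf1 stood at 49.2, 119 and 85.5 CPM and at 148, 176 and 143 CPM (0.87 ± 0.27). E2f1 stood at 47.4, 68 and 60.3 CPM and at 77.7, 88 and 80.4 CPM (0.48 ± 0.13). All 3 were apart between the cultures. By role, 4 of 6 helicase subunits, 3 of 4 licensing factors, 2 of 5 helicase activators and 2 of 6 polymerase and primase genes were higher. So were 2 of 3 genes of nucleotide supply and all 3 of the E cyclins and E2f1. Of the genes of lagging strand joining and single-strand binding 2 of 3 were higher. Of those of chromatin assembly, methylation and histone mRNA 3 of 4 were. None of the 5 genes of the clamp and its loader was.

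Pcna was the exception. At 24 h it stood at 362, 554 and 471 CPM in mono-culture against 356, 416 and 419 CPM, a difference of -0.22 ± 0.14 that was not called, and it was the single gene of the 39 with a negative difference. At 0 h it was 574, 738 and 680 CPM in mono-culture against 491, 560 and 545 CPM (-0.32 ± 0.14), a difference called lower with the block (-0.31 ± 0.09, adjusted p = 0.0164 by edgeR). The direction was the same in each numbered set at both times.

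At 0 h 2 of 39 genes were higher in co-cultured macrophages, where 7.69% of all genes were called higher, 6.02% lower and 13.7% in either direction. Ccne1 stood at 23.5, 31.4 and 30.1 CPM and at 54.4, 60.5 and 44.7 CPM (0.90 ± 0.27), and Slbp at 46.6, 56.2 and 57.7 CPM and at 77.8, 78.1 and 64.7 CPM (0.45 ± 0.14). The groups of both were apart, as for 34 of the 39 genes and 34.2% of all genes. The median difference of the 39 was 0.44, 38 of 39 were positive, and 22 had an unadjusted p under 0.05. The block called 14 higher, Ccne2 among them (0.85 ± 0.27, adjusted p = 0.0443 by edgeR), and Pcna lower, where 19.5% of all genes were called; DESeq2 called 8, and the count was 0 without mono-culture library 001, 002 or 003 or without co-culture library 001 or 002. At 6 h 0 was called by edgeR, with 4 at an unadjusted p under 0.05 and 0 by DESeq2, where 9.94% of all genes were and 5.81% were called higher; the median difference was 0.28.

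Tumour RNA moved with these comparisons. It made up 4.56%, 5.13% and 4.85% of the co-cultured macrophage libraries at 24 h and 1.29%, 3.60% and 2.41% at 0 h, and at most 0.190% of the mono-cultured ones. This share would supply 0.968% to 4.08% of a gene's level in co-cultured macrophages at 24 h (median 2.12%). The part of tumour RNA in the differences between the cultures was not tested.

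**Figure D5:**
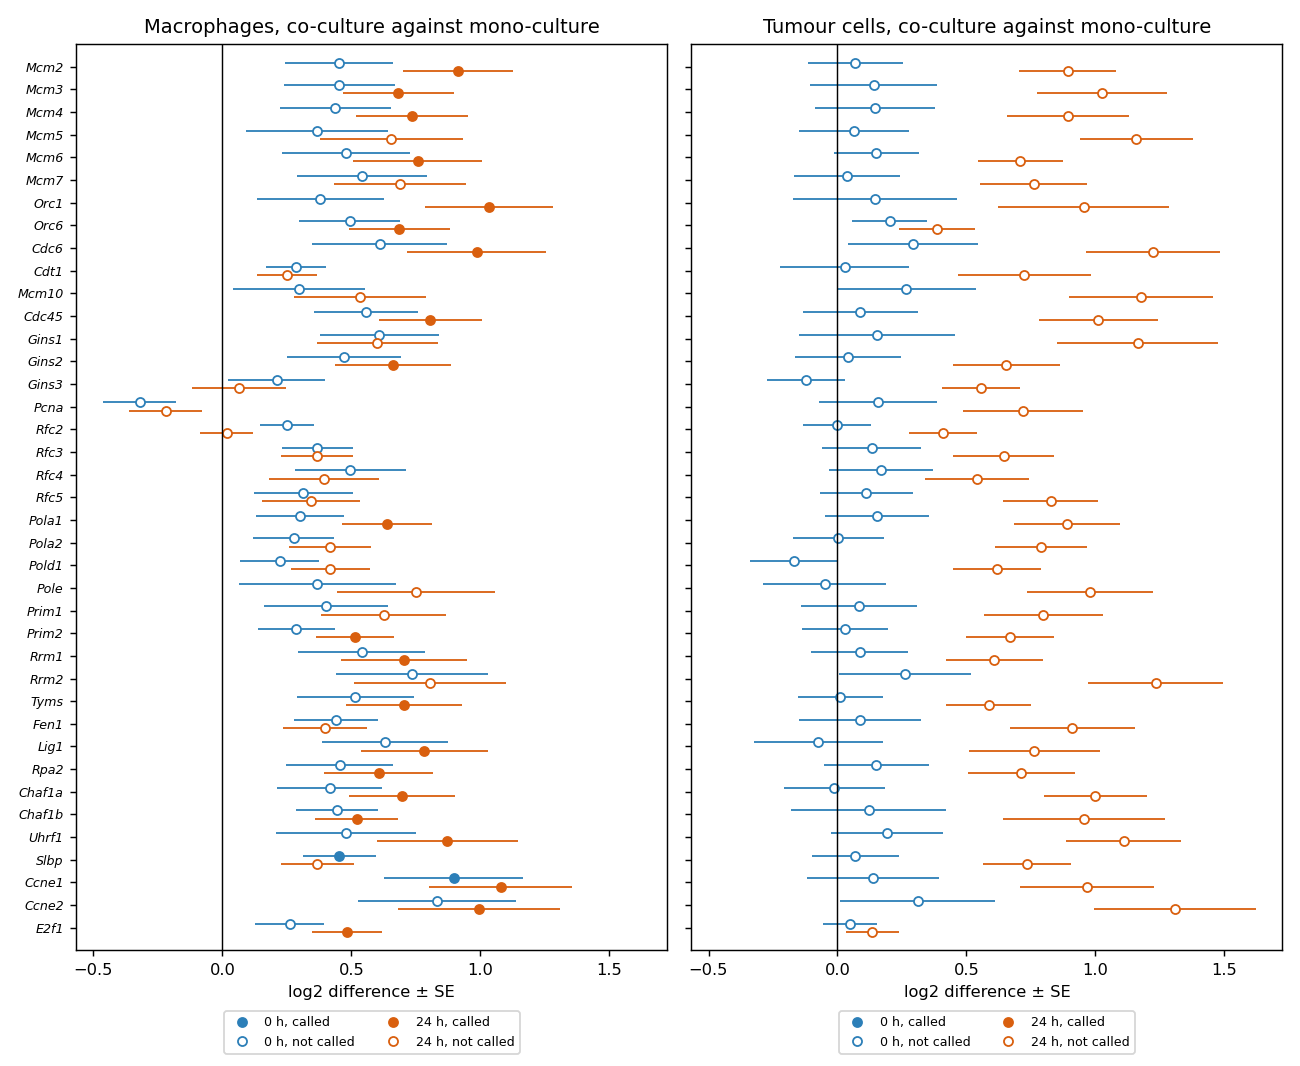
Difference between co-culture and mono-culture (log2, horizontal axis) of each of the 39 genes at 0 h (blue) and 24 h (orange) after myelin, in macrophages (left) and tumour cells (right). Bars are 1 SE, filled points were called at an adjusted p under 0.05 (edgeR, no pairing) and open points were not. In macrophages Pcna is the single gene left of 0 at both times, and in tumour cells the orange points lie right of 0.

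Of the other lists in macrophages at 24 h, 19 of 46 other replication genes were higher in co-culture, among them Hells, a chromatin remodeller (1.04 ± 0.25), and Tk1, a thymidine kinase (1.03 ± 0.35). Of 22 G2 and mitosis genes 6 were higher, led by Foxm1 (0.77 ± 0.27) and Mki67 (0.73 ± 0.25). Of 31 G1 to S regulators 14 were higher and 1 was lower. The D cyclins Ccnd2 (4.84 ± 0.47) and Ccnd1 (1.57 ± 0.42) had the largest differences of those higher, and the kinase inhibitor Cdkn1c was lower (-2.77 ± 0.78). Ccnd2 averaged 2.75 CPM in mono-cultured and 81.3 CPM in co-cultured macrophages, and 1261 CPM in the co-cultured tumour cells, and Ccnd1 averaged 129 CPM, 384 CPM and 804 CPM in the same groups. Tumour RNA made up a mean of 4.845% of the co-cultured macrophage libraries at 24 h. This share bears on the values of both cyclins, and its part was not tested.

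Before myelin, mono-cultured macrophages had higher CPM than mono-cultured tumour cells for 27 of 39 genes and lower CPM for 1, where 32.4% of all genes were called higher, 37.7% lower and 70.0% in either direction; the share of the 39 called in either direction is near that of all genes. These levels are from 1 scaling of all 36 libraries. The widest gap was that of Pcna, at 666 CPM against 102 CPM on average (2.71 ± 0.22, adjusted p = 1.24e-11 by edgeR). Cdt1 (1.56 ± 0.20), Gins1 (1.54 ± 0.29), Mcm10 (1.49 ± 0.29), Rpa2 (1.40 ± 0.23) and Lig1 (1.35 ± 0.27) followed. Rrm2 (0.70 ± 0.30), Ccne2 (0.80 ± 0.33) and E2f1 (0.81 ± 0.14) were also higher, Mcm2 (0.15 ± 0.22) and Ccne1 (-0.03 ± 0.29) were not called, and Orc6 was lower (-0.47 ± 0.20).

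Per kilobase of exon, Pcna was also the most abundant of the 39 in both cell types at 0 h, with 277 ± 34.6 CPM per kilobase in macrophages and 44.4 ± 7.97 in tumour cells (SD, n = 3). In macrophages Mcm6 came next, at 65.7 ± 17.6 CPM per kilobase. In tumour cells Mcm4 (37.1 ± 1.11) and Mcm6 (34.9 ± 3.43) followed and lay within the SD of Mcm6 of each other. Orc1 was the lowest in both, at 2.24 ± 0.43 and 1.83 ± 0.43 CPM per kilobase. These lengths are the union of annotated exons, which oligo-dT primed libraries need not cover evenly.

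The members moved as a block from library to library. Over the 18 libraries of a cell type, the correlation of a gene's log2(CPM + 1) with the mean of the other 38 was highest for Mcm3 in macrophages (0.99) and Mcm5 in tumour cells (0.99). This is a description: the libraries share culture, number and scaling. E2f1 was the least correlated in tumour cells (0.59), ahead of Tyms (0.72) and Rfc4 (0.78). In macrophages it was Gins3 (0.33), Pcna (0.33) and Rfc2 (0.59). For 12 of the 39 genes an overlapping gene had at least 5% as many counts (Mcm7, Orc1, Orc6, Cdc45, Gins2, Rfc2, Rfc4, Rfc5, Fen1, Lig1, Chaf1a and Ccne2), and no source used here says whether the counting used strand, so their values are less certain.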

How the data were processed

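The authors deposited raw counts per gene for 36 libraries of FACS-purified cells, made with oligo-dT priming and template switching per the labels' protocols, on build mm10 per the submitters' processing notes, with an aligner and counter not given in the sources used here. Counts were tested with edgeR 4.0.16 in R 4.3.3 (filterByExpr, TMM, robust quasi-likelihood fit, Benjamini-Hochberg), 18 libraries of a cell type in 1 fit: 13165 genes in macrophages and 13603 in tumour cells, and 14776 over 36 libraries between cell types. SEs are the log2 change divided by the square root of F. The tests were tested on simulated data. DESeq2 1.42.0 and other settings were alternatives. Library numbers paired the libraries in all comparisons within tumour cells (residual correlations of same-numbered libraries 0.264 to 0.838). They also did so in comparisons of times within a culture of macrophages, and between macrophage cultures at 0 h (all above 0.1). For these comparisons blocked values are given for some of the genes whose call they change. Promoters came from RefSeq, and exon lengths and overlaps from GENCODE. Any member could be named; library values are given for the called members with the largest non-overlapping changes, at most 6 a comparison, and for 6 members followed throughout, and at most 3 called genes of each other list. The members and lists were chosen with earlier results of these data known.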

Additional observations from a re-analysis of the deposited data

Results flagged for a closer look

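Genes are given here when macrophages went one way and tumour cells the other in all 3 numbered sets under the same contrast. The difference between the cell types (macrophage minus tumour cell change, log2) was not tested for any of them. From 0 h to 6 h in mono-culture it was 0.79 for Rrm2, 0.647 for Lig1, 0.619 for Mcm3, 0.611 for Slbp, 0.546 for Orc6, 0.458 for Mcm5, 0.426 for Rrm1, 0.404 for Pola2 and 0.365 for Chaf1a. In each of these 9 genes macrophages went up and tumour cells down, and neither change was called. From 0 h to 6 h in co-culture it was 0.59 for Cdc45, 0.505 for Chaf1b and 0.27 for Orc1, again with neither change called.

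From 0 h to 24 h in mono-culture Gins3, a subunit of the GINS complex, differed by 0.977: it went from 9.96, 9.27 and 11.5 CPM to 12, 17.2 and 12.2 CPM in macrophages (0.43 ± 0.19, not called) and fell in tumour cells (-0.55 ± 0.15). Between the cultures at 24 h Pcna differed by -0.938: it was lower in co-cultured macrophages (-0.22 ± 0.14, not called) and higher in co-cultured tumour cells (0.72 ± 0.23, not called).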

How the results depend on the processing

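None of the 19 counts of genes called changed by more than 1.5 times with RLE size factors, and none of the 18 within a cell type did without CT010467.1, an alternative chosen after the data were seen. With the replicate block, macrophage counts went from 9 to 16 and 0 to 8 (24 h against 0 h, mono- and co-culture), and, between cultures, from 2 to 15 at 0 h, 0 to 2 at 6 h and 21 to 32 at 24 h; tumour counts went from 0 to 1 (co-culture, 24 h against 0 h) and 0 to 26 (between cultures at 24 h). The block changed no other count by more than 1.5 times. Same-numbered macrophage libraries did not pair between cultures at 6 h (correlations from -0.02) and 24 h (from 0.07), in the interactions (from -0.06) or between cell types (from 0.06).

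DESeq2 gave 14, 3, 8 and 32 for macrophages (24 h mono-culture, 24 h co-culture, between cultures at 0 h and 24 h) and 27 for tumour cells between cultures at 24 h. The compared groups alone gave 0, 16, 14 and 10 for those macrophage counts, and no low-count filter gave 5, 0 and 11 for mono-culture at 24 h and between cultures at 0 h and 24 h. Libraries 002 and 003 alone, chosen after the data were seen, gave 14, 9 and 6 for the first 3, 1 for macrophages between cultures at 6 h, and for tumour cells 2 and 1 (6 h, mono- and co-culture), 6 (24 h co-culture), 15, 12 and 39 (between cultures at 0, 6 and 24 h) and 20 (interaction at 24 h). Leaving out 1 library gave 1 to 24, 0 to 2 and 4 to 33 for macrophages (mono-culture 24 h, between cultures at 0 h and 24 h), and 20 to 32 and 0 to 30 for tumour cells (mono-culture 24 h, between cultures at 24 h). These counts are not set against a share of all genes called. The cause of these moves was not tested.

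No called change of a named gene changed sign. Of 132 named changes 29 did under some setting, all uncalled. With libraries 002 and 003 alone E2f1 was -0.0097 (macrophages, mono-culture 6 h), Rrm2 0.0126 and 0.0647 (macrophages, 24 h, mono- and co-culture), Pcna -0.0193 (macrophages, co-culture 6 h), 0.0419 and 0.0438 (tumour cells, 6 h, mono- and co-culture), Ccne1 0.00048 (tumour cells, co-culture 24 h) and Ccne2 -0.16 (tumour interaction, 6 h). Pcna in co-cultured macrophages at 6 h was -0.0150 with DESeq2, -0.0150 with RLE, -0.0073 in the groups alone and -0.0093 without the filter, where Rrm2 in co-cultured tumour cells at 6 h was 0.0011 and Ccne1 between cell types 0.0799.

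Without 1 library the range was, in mono-cultured macrophages at 6 h, Mcm2 -0.23 to 0.14, Pcna -0.061 to 0.13 and E2f1 -0.10 to 0.15. In mono-cultured macrophages at 24 h it was Rrm2 -0.56 to 0.15. In co-cultured macrophages at 6 h it was Mcm2 -0.10 to 0.013, Pcna -0.0601 to 0.04, E2f1 -0.048 to 0.033 and Ccne2 -0.055 to 0.17. In co-cultured macrophages at 24 h it was Rrm2 -0.20 to 0.079. In the macrophage interaction at 6 h it was Mcm2 -0.20 to 0.17, Pcna -0.14 to 0.049, E2f1 -0.16 to 0.076 and Ccne2 -0.46 to 0.014. In the macrophage interaction at 24 h it was Pcna -0.024 to 0.25, Rrm2 -0.20 to 0.50, Ccne1 -0.013 to 0.61 and Ccne2 -0.10 to 0.72. In co-cultured tumour cells at 6 h it was Pcna -0.21 to 0.20, Rrm2 -0.15 to 0.13 and Ccne1 -0.25 to 0.11. In co-cultured tumour cells at 24 h it was E2f1 -0.082 to 0.015 and Ccne1 -0.24 to 0.20. In tumour cells between cultures at 0 h it was Ccne1 -0.0068 to 0.33. In the tumour interaction at 6 h it was Mcm2 -0.013 to 0.31, Pcna -0.00035 to 0.41, E2f1 -0.00039 to 0.21 and Ccne2 -0.041 to 0.33. In macrophages against tumour cells it was Ccne1 -0.074 to 0.12.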
